A study of Mus musculus with 6 samples.

Results

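Jmjd1c and Mef2c were both marked by H3K79me2 in mouse leukaemias driven by MN1, each by 1 region over 100 kb wide with a trail of low peaks on its high-coordinate side. The peaks described here are those that overlap by at least 1 base the span around Jmjd1c, chr10:66555000-66722000, or the span around Mef2c, chr13:83640000-83810000 (mm9). There were 6 such peaks of 18992 in the list, 3 at each gene, and the nearest peaks outside each span were added for context. The mark was measured by ChIP-seq, the sequencing of chromatin pulled down with an antibody, in 3 libraries, beside 3 libraries of input chromatin sequenced without the antibody. Both groups came from the same kind of cell: blasts sorted from the bone marrow of moribund mice that had received CMP cells transformed with MN1, kept briefly in culture with FBS, Il3, Il6 and SCF, on a C57BL/6 background and Dot1l f/f with the conditional allele not inactivated. Whether each library is from a mouse of its own is not stated in the labels. The deposited list is 1 set of peaks over the combined libraries, so no value has a replicate error and none could be tested between samples. A list without marker levels also gives no check of the labelled cell type.

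H3K79me2, dimethylation of a lysine on the globular part of histone H3, is the product of the methyltransferase DOT1L, and it lies over transcribed genes, as a rule most densely in their 5′ parts. In leukaemias with rearranged MLL, fusion partners of MLL draw DOT1L to a set of genes that then carry broad H3K79me2. Jmjd1c and Mef2c are among the genes known from such leukaemias. Jmjd1c encodes a protein of the KDM3 family of Jumonji-domain histone demethylases, needed for the growth of MLL-rearranged leukaemia cells in mouse models. Mef2c encodes a MADS-box transcription factor of the MEF2 family, known in muscle and neuron development, in lymphoid and myeloid fate and in MLL-rearranged leukaemia. MN1 leukaemia is a different entity, in which a transcriptional cofactor is overexpressed and MLL is not rearranged. The question this study asks of these cells, by its title, is the part that MLL1 and DOT1L play in it.

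The first listed promoters of these genes differ in base composition, whereas the later ones are closer to each other. Of the listed promoters, 3 are shown because they mark where transcription of each gene can begin. They are RefSeq sequences of the build GRCm38.p6 on the + strand, 250 bases before to 50 bases after an annotated start, with every CG dinucleotide in capitals. The table lists 2 starts for Jmjd1c and 3 for Mef2c. The first listed start of Jmjd1c is chr10:67126838-67127137, the first of Mef2c chr13:83503784-83504083 and the second of Mef2c chr13:83523406-83523705, all in GRCm38.p6 and not comparable with the mm9 positions of the peaks.
Jmjd1c, first listed start: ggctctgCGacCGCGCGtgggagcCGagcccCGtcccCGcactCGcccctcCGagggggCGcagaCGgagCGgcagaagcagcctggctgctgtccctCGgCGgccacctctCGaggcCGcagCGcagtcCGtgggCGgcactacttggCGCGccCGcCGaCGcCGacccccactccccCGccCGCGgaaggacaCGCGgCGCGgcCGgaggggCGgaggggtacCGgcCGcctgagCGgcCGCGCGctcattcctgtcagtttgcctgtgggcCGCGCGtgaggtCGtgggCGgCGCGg
Mef2c, first listed start: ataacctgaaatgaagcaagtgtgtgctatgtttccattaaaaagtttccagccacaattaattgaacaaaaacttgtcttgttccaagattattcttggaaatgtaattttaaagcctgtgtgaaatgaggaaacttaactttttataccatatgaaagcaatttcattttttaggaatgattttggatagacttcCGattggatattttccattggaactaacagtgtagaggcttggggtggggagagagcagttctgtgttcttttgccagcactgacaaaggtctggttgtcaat
Mef2c, second listed start: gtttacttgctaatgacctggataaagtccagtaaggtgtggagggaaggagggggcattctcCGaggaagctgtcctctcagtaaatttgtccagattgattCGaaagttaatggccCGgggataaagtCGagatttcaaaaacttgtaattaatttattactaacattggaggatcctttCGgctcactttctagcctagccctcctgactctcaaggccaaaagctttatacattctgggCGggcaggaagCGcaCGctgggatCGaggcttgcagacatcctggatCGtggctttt
The first Jmjd1c sequence held 47 CG dinucleotides and was 78.0% G or C, against medians of 7 and 52.7% over 32851 promoters of the same length. Only 1.44% of those promoters held as many CG. The second listed start of Jmjd1c, 58.7 kb further on, held 13 CG and was 48.3% G or C. The first Mef2c sequence held 1 CG and was 35.7% G or C, and 94.6% of all promoters held at least as many CG. The second start of Mef2c lies 19.6 kb downstream of the first and held 10 CG, with 47.0% G or C. The third, 69.6 kb downstream of the first, held 4 CG, with 48.3% G or C. The letters TATAAA, searched on both strands, occurred in the first and the second Mef2c sequence, in neither sequence of Jmjd1c, and in 13.6% of all promoters. The letters CCAAT, on either strand, occurred in the same sequences and in 37.4% of all promoters. The third Mef2c sequence, like those of Jmjd1c, held neither. The letters GGGCGG, also searched on both strands, did not separate the genes. They occurred in the first Jmjd1c and the second Mef2c sequence, and in 35.7% of all promoters. These are matches of letters in a window and show no binding.

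The Jmjd1c region was one of the widest H3K79me2 regions in the leukaemia cells. It ran from chr10:66501928 to 66701203, a width of 199.3 kb, with a pooled pileup of 76.5 reads, a 5.99-fold enrichment over the control background and −log10 q at 39.5. The pileup is the pooled coverage, written here in reads although whether it was scaled is not stated. The fold and q are the authors' own values for the peak, which can be averages over its whole length. It ranked 12th in width of the 18992 peaks and was the widest of the 979 on chromosome 10, where it held 1.75% of all covered bases. In fold it ranked 2987th of all peaks and 164th on its chromosome. Of its length, 146.2 kb lay inside the span around Jmjd1c and 53.1 kb before it, on the side of the neighbouring gene Reep3. Counted by the part inside alone, it would rank 46th in width. With peaks at most 3 kb apart joined, it ranked 27th of 13365 regions.

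The Mef2c region had about the same height as that of Jmjd1c over a shorter length. It ran from chr13:83663879 to 83771885, a width of 108.0 kb, with a pooled pileup of 72.3 reads, a fold of 5.56 and −log10 q at 34.1. It ranked 134th in width among all peaks and 7th of the 1029 on chromosome 13. Its fold ranked 3464th in the list and 133rd on the chromosome. The Jmjd1c region was 1.85 times as wide as that of Mef2c, or 1.35 times by the part inside each span, whereas its pileup was 1.06 times and its fold 1.08 times as high. Without values per library, it cannot be said whether the small differences in pileup and fold exceed replicate error. The control background was not listed and was computed from pileup and fold, taking it that the caller adds 1 to both. By this estimate it was 11.9 reads under the Jmjd1c region and 12.2 under that of Mef2c, which are nearly equal.

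**Figure D1:**
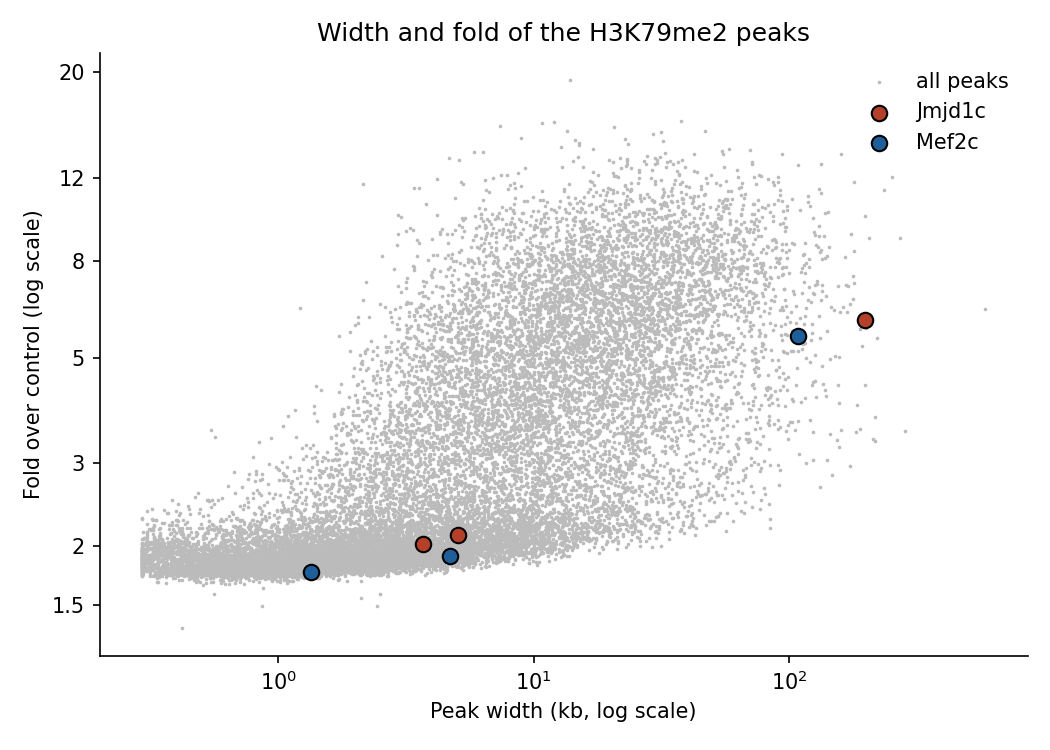
Each grey point is 1 of the 18992 H3K79me2 peaks, by its width in kb and the authors' fold over the control background, both on log scales. The widest peaks of Jmjd1c (199.3 kb) and Mef2c (108.0 kb) lie at the far right at folds of 5.99 and 5.56, and the other 4 member peaks lie among the low, narrow peaks under a fold of 2.2.

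Among regions at least 100 kb wide, both genes lay near the middle in fold, a little under the median. Of the 6 member peaks, 2 had a fold of at least 4, against 29.3% of the list, and the same 2 had a −log10 q of at least 10, against 36.4%. These 2 were also the member peaks at least 50 kb wide (4.6% of the list) and at least 100 kb wide (0.811%). The 154 peaks of at least 100 kb had a median fold of 6.27, quartiles of 4.54 and 8.11 and a range of 2.67 to 13.5. Jmjd1c ranked 85th and Mef2c 95th of these 154 by fold, both under the median and inside the quartiles. Their pileups of 76.5 and 72.3 reads lay under the median of 78.5 for this width. Over all 18992 peaks, by contrast, the fold of Jmjd1c lay above 84.3% and that of Mef2c above 81.8% of peaks.

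Regions that match either gene in width and fold occurred on several chromosomes. The closest to the Jmjd1c region was chr4:149654737-149845707, 191.0 kb wide with a fold of 6.12 and a pileup of 77.7 reads, followed by chr3:136331286-136532263, 201.0 kb wide with a fold of 5.78. The closest to the Mef2c region was chr5:46128337-46239225, 110.9 kb wide with a fold of 5.47 and a pileup of 67.1 reads. It was followed by chr17:78599217-78701757, 102.5 kb wide with a fold of 5.70. Likeness was measured as the distance in log2 width and log2 fold, each in SD over the list, and the 5 closest to Jmjd1c lay within 0.174 SD and those of Mef2c within 0.079 SD. The genes under these regions were not assigned.

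The span of Jmjd1c was almost wholly covered by H3K79me2. Its peaks covered 154.9 kb of 167.0 kb, or 92.8%, and 94.4% of that came from the wide region. The covered stretch was unbroken from the lower edge of the span to 146.2 kb inside it. The part before that edge made up 26.6% of the length of the peak. The nearest protein-coding gene on that side, by gene order in a RefSeq table of GRCm38.p6, is Reep3, which encodes a protein of the endoplasmic reticulum and whose gene model overlaps that of Jmjd1c at its edge. How much of the region lies over Reep3 was not determined, because gene positions in mm9 were not used here, and a single fold for the whole peak cannot divide the signal between both genes.

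The wide region of Mef2c began and ended inside the span around the gene. Its peaks covered 114.0 kb of 170.0 kb, or 67.1%, and 94.7% of that came from the wide region. The first 23.9 kb of the span held no peak, which is 14.0% of its length. Mef2c is transcribed towards higher coordinates, as the strand of its listed starts shows, so this unmarked stretch lies at the 5′ end of the span. The spans were taken as given and were not checked against gene positions in mm9, so the stretch can include sequence before the gene, and how much of Mef2c itself is unmarked was not determined. The wide region ended 38.1 kb before the upper edge. At Jmjd1c, which has the same strand, no such unmarked stretch was seen at the 5′ end, and the wide region ended 20.8 kb before the upper edge. Which of the 3 listed Mef2c starts lies under the region was not determined.

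**Figure D2:**
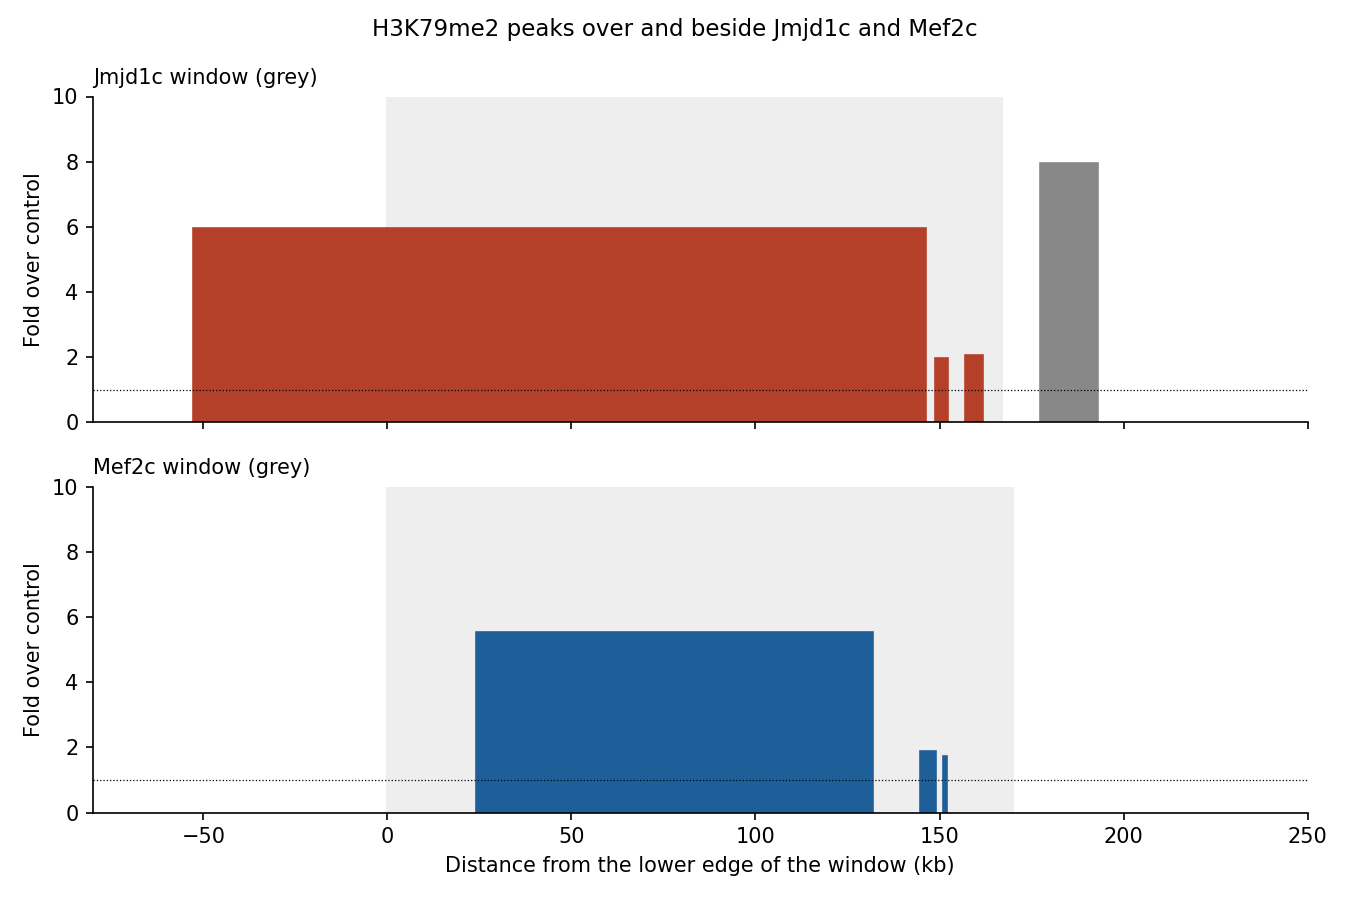
H3K79me2 peaks drawn as bars from start to end, by distance in kb from the lower edge of the span around each gene (grey) and by the authors' fold over the control background, with a dotted line at a fold of 1. Coloured bars overlap the span, and grey bars do not. The Jmjd1c region starts 53.1 kb before its span and ends 146.2 kb inside, the Mef2c region runs from 23.9 to 131.9 kb, and both are followed by a pair of low peaks.

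On the 3′ side each wide region was followed by 2 low peaks. At Jmjd1c they were chr10:66703636-66707338, 3.70 kb wide with a pileup of 26.4 reads, a fold of 2.02 and −log10 q at 2.56, and chr10:66711651-66716688, 5.04 kb wide with a pileup of 24.5 reads, a fold of 2.11 and −log10 q at 2.71. The first began 2.43 kb after the wide region and the second 4.31 kb after the first. At Mef2c they were chr13:83784311-83789003, 4.69 kb wide with a pileup of 23.2 reads, a fold of 1.91 and −log10 q at 1.91, and chr13:83790578-83791917, 1.34 kb wide with a pileup of 20.6 reads, a fold of 1.77 and −log10 q at 1.26. Here the first began 12.4 kb after the wide region and the second 1.57 kb after the first. The low peaks at Jmjd1c had pileups above 47.9% and 41.1% and folds above 36.7% and 43.2% of the list, somewhat under its middle. Those at Mef2c had folds above 24.7% and 4.47% of peaks, and the last one lay close to the limit of the list, whose lowest pileup is 19 reads and lowest −log10 q 1.02. The 10171 peaks of 1 to 10 kb in the list had a median fold of 2.09. By fold the low peaks at Jmjd1c lay on either side of it and those at Mef2c under it. The wide regions were 2.84 times (Jmjd1c) and 2.91 times (Mef2c) as high in fold as the stronger low peak beside them.

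Low peaks near another peak were ordinary in the list. Of the 154 peaks at least 100 kb wide, 44 (28.6%) had at least 1 peak of under 2.5-fold within 20 kb on the high-coordinate side and none on the other, against 20.6% of all 18992 peaks. At least 2 such peaks on the high-coordinate side and none on the other, as at Jmjd1c and Mef2c, were found beside 22 of the 154 (14.3%) and beside 8.08% of all peaks. No test of these shares was made. Both genes are themselves counted in them, and no limit other than 20 kb was tried. The pattern at both genes rests on that limit. At Jmjd1c a peak of 2.18-fold lay 31.9 kb away on the low-coordinate side, which a wider limit can count. At Mef2c the first low peak began 12.4 kb after the wide region, so a limit under 12.4 kb would count none there. Of the 154, 46 had low peaks on the low-coordinate side alone, 6 on both sides and 58 on neither. The strand of the genes under the other regions was not assigned, so these counts do not show how often the low peaks lie at a 3′ end. Joining peaks at most 3 kb apart made the Jmjd1c region 205.4 kb long and joined the 2 low peaks at Mef2c to each other but not to the wide region. By width the wide regions then ranked 27th (Jmjd1c) and 203rd (Mef2c) of 13365. Joining peaks at most 20 kb apart gave 1 region of 128.0 kb at Mef2c from its 3 peaks. At Jmjd1c it gave 246.1 kb from 4 peaks, of which the fourth lies outside the span. Joined in this way, the regions ranked 43rd (Jmjd1c) and 393rd (Mef2c) in width of 7230, so the width ranks depend on the joining.

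Few stretches of this length in the genome were as fully covered. The list was cut into windows as long as each gene's span, laid end to end from the first to the last peak of each chromosome. Of 15284 windows of 167.0 kb, 30 (0.196%) were covered at least as much as the span of Jmjd1c. Of 15014 windows of 170.0 kb, 203 (1.35%) were covered at least as much as that of Mef2c. The median window held no covered base, 61.8% and 61.7% of the windows held none, and the mean share was 8.71% and 8.70%. The windows were not placed on genes, whereas the 2 spans were, so these ranks describe the list and do not compare genes.

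**Figure D3:**
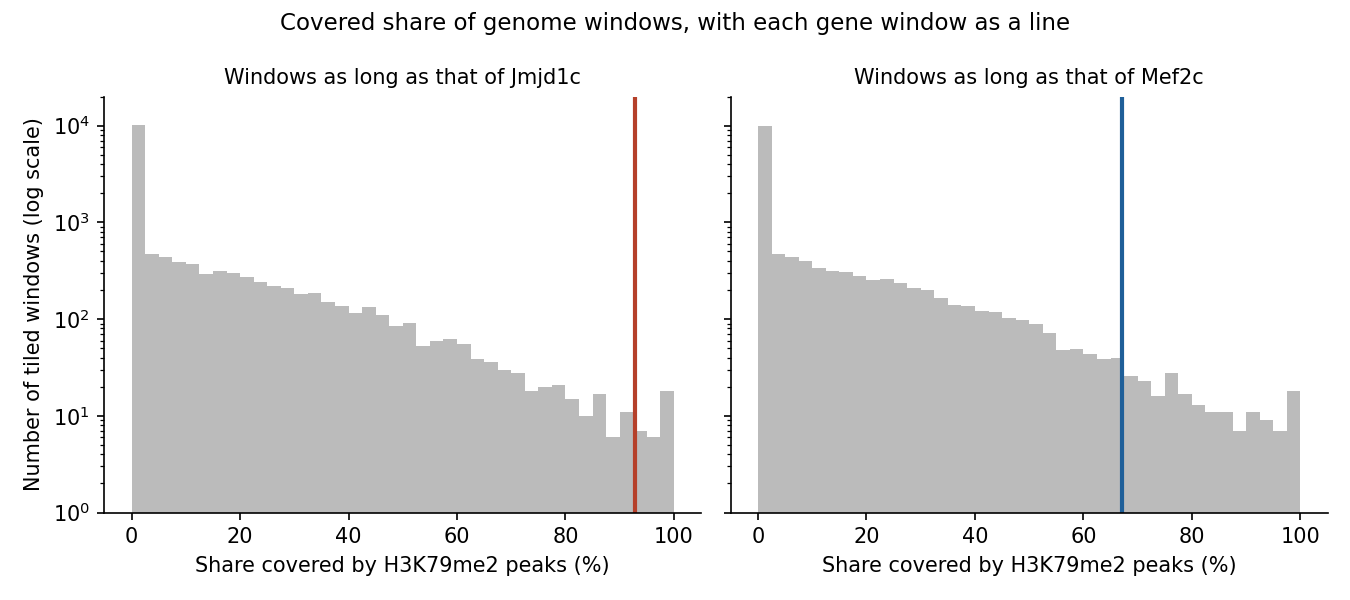
Number of windows (log scale) by the share of their bases covered by H3K79me2 peaks, for 15284 windows as long as the span of Jmjd1c (left) and 15014 as long as that of Mef2c (right). The coloured lines mark the spans themselves, at 92.8% and 67.1%.

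No H3K79me2 peak was listed for long distances on either side of Mef2c. Within 500 kb of the Mef2c span there was no peak on either side. The nearest on the low side was chr13:81921009-81937645, 1726 kb from the region and 16.6 kb wide with a fold of 3.52. The nearest on the high side was chr13:84361936-84399132, 570.0 kb from the last low peak and 37.2 kb wide, with 6.70-fold enrichment. Of the 18971 gaps between neighbouring peaks, whose median is 9.01 kb, 278 (1.47%) were at least as long as the first and 913 (4.81%) at least as long as the second. The nearest protein-coding genes by order in GRCm38.p6 are Cetn3 below and Tmem161b above. Their positions in mm9 were not used, so the flanking peaks were not assigned to them. Whether reads could be mapped throughout these empty stretches was not tested.

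Jmjd1c lay at the edge of a longer empty stretch and next to a strong region on its other side. On the low side a single peak of 1.96 kb with a fold of 2.18, chr10:66468060-66470014, stood 31.9 kb from the Jmjd1c region. Beyond it no peak was listed for 3667 kb, and 80 of the 18971 gaps were at least as long. On the high side chr10:66732123-66748007 followed 15.4 kb after the last low peak, 15.9 kb wide with a pileup of 96.8 reads, a fold of 7.999 and −log10 q at 61.4. This neighbour was narrower than the Jmjd1c region and higher in pileup, fold and −log10 q. The next protein-coding gene by order on that side is Nrbf2, which encodes a subunit of the autophagy kinase complex of VPS34. Its position in mm9 was not used, so the peaks on this side were not assigned to it. The next peak, chr10:67005144-67013579, lay 288.5 kb from the last low peak at Jmjd1c and had a fold of 7.89.

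The nearest other region of at least 4-fold was 30.9 kb from the wide region at Jmjd1c and 590.1 kb from that at Mef2c. Among the 130 peaks at least 100 kb wide and of at least 4-fold, this distance had a median of 108.1 kb. Mef2c had the 15th longest and Jmjd1c the 97th. Mef2c was thus among the more isolated of the long marked regions, while Jmjd1c had a strong neighbour on one side and none for 3701 kb on the other.

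**Figure D4:**
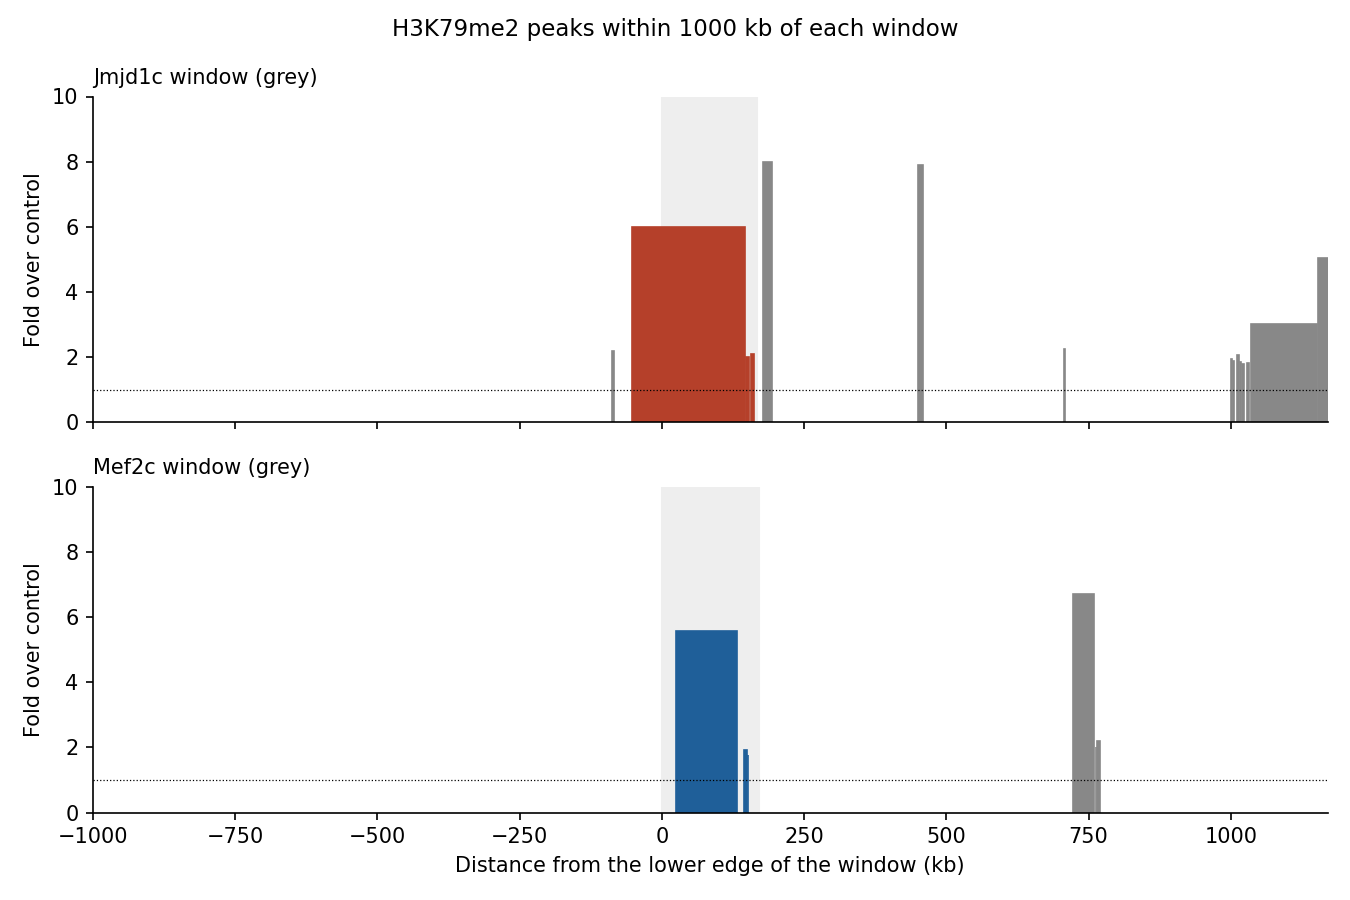
H3K79me2 peaks within 1000 kb of each gene's span (grey), drawn as bars by distance in kb from its lower edge and by the authors' fold over the control background, with a dotted line at a fold of 1. Coloured bars overlap the span. Beside Jmjd1c a region with a fold of 7.999 follows on the high side, and beside Mef2c no peak is listed until a region with a fold of 6.70, 551.9 kb above its span.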

How the data were processed

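The submitters' processing notes name the build mm9 and, as tools, MACS2, bedtools 2.25.0, SAMtools, GSNAP and CASAVA 1.8.2; their settings are not given in the sources used here. Of the columns in the deposited table, those used here are position, length, the pileup (a coverage signal over the combined libraries), −log10 q from the authors' peak caller and the authors' fold (ratio) over control background. Reads per library, and any scaling of the pileup, are not given in the sources used here. Depth is therefore known only through pileups, which ran from 19 to 280.6 with a median of 27.2.

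Libraries were grouped by their titles. The gene spans come from the rule that chose the members. Members, lists and measures were chosen with earlier results of these data known. Peaks named are every peak in either span, the nearest outside them and those most like the wide peaks. No test was run, because the list pools the libraries. The median control background over the list was 11.2 reads, computed as (pileup + 1) / fold − 1, which takes it that the caller adds 1 to both. Other MEF2, KDM3 and MLL target genes were not analysed here for want of mm9 gene positions. Coverage, tiling and joining were tested on simulated peaks. Exact binomial 95% intervals of shares treat bases, peaks or windows as independent draws, which they are not. They served only as a yardstick for the alternatives and measure no spread between libraries. Alternatives changed thresholds, joining, overlap, span edges and the peaks or windows ranked among. Computations used pandas 2.3.3, scipy 1.17.1 and numpy 2.4.6 under Python 3.11.15, with plots from matplotlib 3.10.9.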

Additional observations from a re-analysis of the deposited data

How the results depend on the processing

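No paired analysis was possible because all libraries share 1 peak list, and for the same reason no replicate could be left out. Of 38 alternatives over 8 results, 26 moved the value past its exact binomial interval, which is narrow because bases and peaks are counted as if independent, or changed a count by over 1.5 times. Under a minimum −log10 q of 5 or 10, or a minimum fold of 4, the same wide peak was left at each gene, so the count fell from 3 to 1 at both and the covered share became 87.5% at Jmjd1c and 63.5% at Mef2c. Joining peaks at most 3 kb apart gave 94.2% and 68.0%, and spans 10 kb longer on each side gave 88.2% and 60.0%. The rank of the wide peak by fold depended on the peaks it was ranked among. The fold of Jmjd1c lay above 84.3% of all peaks, 83.2% on its chromosome, 56.8% of those with a −log10 q of at least 10 and 42.7% of those at least 50 kb wide. The corresponding shares for Mef2c were 81.8%, 87.1%, 49.9% and 37.8%. The covered share of Jmjd1c lay above 99.8% of tiled windows, 99.9% on its chromosome and 99.5% of those with a peak, and that of Mef2c above 98.6%, 98.1% and 96.5%. The lowest pileup listed is 19 reads, and weaker marking of either gene was not detectable.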
